A study of Mus musculus with 16 samples.

Results

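The BCL2 family decides whether a cell commits to death through its mitochondria, and 10 of its genes were followed here in a mouse model of multiple myeloma: Bcl2, Mcl1, Bcl2l1, Bcl2l2, Bcl2l11, Bax, Bak1, Bid, Bad and Bbc3. A probe set was assigned to a gene where the platform annotation gives that gene and no other, and every such probe set was kept, whatever its values. This gave 32 probe sets of 9 genes, out of 45101 probe sets and 18194 named genes on the array. Bax was not analysed here.

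Messenger RNA was measured on Affymetrix 430 2.0 arrays in 3 groups of C57BL/6 mice. Eμ-xbp-1s MM (6 arrays) is RNA from myeloma tumors of mice carrying the spliced form of Xbp1 as a transgene. Eμ-xbp-1s B cells (5 arrays) are B220+ spleen cells taken with magnetic beads from transgenic mice at 20 weeks, and nontransgenic B cells (5 arrays) were taken the same way, at the same age, from mice without the transgene. The transgene is driven by an immunoglobulin heavy chain promoter and the Eμ enhancer, which is active through B cell development and also in some T cells. The mice came from independent founder lines, and the labels do not say which array belongs to which line, how old the mice with MM were. In this model MM arises in aged mice, so age and MM cannot be told apart in the comparisons of MM. No sort is named for the MM samples, whose RNA may come from any cell type in the tumor. The labels also do not say whether each MM array is a separate mouse, so p-values measure only the spread between these samples, part of which may be technical. MM arrays 1 to 3 were alike (r = 0.937 to 0.963 of log2 intensity), as were 4 and 5 (0.924), against 0.704 to 0.785 between these sets. Eμ-xbp-1s B cell arrays 1 and 2 were the closest pair within any group (r = 0.989). The tests count all arrays as independent.

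The family works through binding between its members. BCL2, MCL1, BCL-XL (from Bcl2l1) and BCL-W (from Bcl2l2) hold the pro-apoptotic members in check and keep the outer mitochondrial membrane intact. BAX and BAK (from Bak1) form the pores that release cytochrome c, and the BH3-only proteins BIM (from Bcl2l11), BID, BAD and PUMA (from Bbc3) sense stress and either block the protective members or activate the pore formers. Mature B cells depend on BCL2 and MCL1, plasma cells and myeloma cells depend strongly on MCL1, and BCL-XL protects maturing red cells.

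Median intensities per array were 69.3 to 82.9 for MM, 69.0 to 73.5 for Eμ-xbp-1s B cells and 70.8 to 73.0 for nontransgenic B cells. Xbp1 itself did not separate the groups at its brightest probe set, which read 1477 to 4979 in MM, 2040 to 3108 in Eμ-xbp-1s B cells and 1802 to 2452 in nontransgenic B cells, so the labels could not be checked by it. The markers of mature B cells that could be measured (9 of 10) summed to 758 to 14021 in MM, 15467 to 30487 in Eμ-xbp-1s B cells and 35870 to 39264 in nontransgenic B cells. MM arrays 4 and 5 stood lowest, with Ms4a1 (CD20) at 118 and 60.3. The plasma cell markers (9 of 10) summed to 4299 to 17059 in MM, 10592 to 15568 in Eμ-xbp-1s B cells and 11516 to 12988 in nontransgenic B cells, and Sdc1 (CD138) read 110 to 264 in MM, 163 to 389 in Eμ-xbp-1s B cells and 141 to 246 in nontransgenic B cells, so neither the sum nor Sdc1 set MM apart. Of the 8 tested, 0 passed against Eμ-xbp-1s B cells and 1 fell against nontransgenic B cells, Irf4, a factor that plasma cells need, which read 53.5 to 307 in MM, 357 to 919 in Eμ-xbp-1s B cells and 791 to 1032 in nontransgenic B cells (log2 fold change -2.19, adjusted p = 0.0026 from limma). Markers of stroma did (10 of 10), which summed to 5391 to 14037 in MM, 450.4 to 590.3 in Eμ-xbp-1s B cells and 398 to 595 in nontransgenic B cells, and T cell markers (8 of 10) to 774 to 4559, 6625 to 8223 and 1370 to 1680 in the same order. Neutrophil markers (9 of 10) summed to 1096 to 70852 in MM, highest on arrays 4 and 5, to 9765 to 30946 in Eμ-xbp-1s B cells and to 711 to 1503 in nontransgenic B cells. Macrophage and monocyte markers (10 of 10) summed to 9156 to 44556 in MM, 7715 to 15625 in Eμ-xbp-1s B cells and 3793 to 6017 in nontransgenic B cells. Genes of G2 and mitosis (9 measured) summed to 3178 to 13313 in MM, 1331 to 2002 in Eμ-xbp-1s B cells and 944 to 2443 in nontransgenic B cells. The part of these other cells and of cell division in the results below was not tested, and with RNA of whole samples, fewer cells of a type and less RNA per cell cannot be told apart.

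Probe sets of 2 anti-apoptotic genes were called lower in MM, 1 of Bcl2 against Eμ-xbp-1s B cells and 2 of Bcl2 and 3 of Mcl1 against nontransgenic B cells, while none of the pro-apoptotic members passed the test in any comparison. With array weights, 6 pro-apoptotic probe sets passed: Bak1 1425716_s_at lower against Eμ-xbp-1s B cells, Bad 1416583_at, Bak1 1418991_at and Bcl2l11 1456006_at higher in MM against nontransgenic B cells, and Bbc3 1423315_at and Bcl2l11 1435448_at higher between the B cell groups. The share of all probe sets that passed with array weights is not given here, so these calls cannot be set against it. A probe set was tested where more than 20% of the arrays in a comparison exceeded 100, with a floor of 50 under all values, and was called at an adjusted p under 0.01 from limma with Benjamini-Hochberg adjustment over every probe set tested. Of the 32 member probe sets, 26 were tested in at least 1 comparison and 6 in none. When MM was set against Eμ-xbp-1s B cells, 25 were tested and 1 was called (4%, against 3.19% of all probe sets tested), lower in MM, and 0 were called higher (over all probe sets, 1.91% were lower and 1.28% higher). By the unadjusted p alone, 10 of these 25 lay under 0.05 with a lower value and 1 with a higher (15.2% and 11.4% of all probe sets tested). When MM was set against nontransgenic B cells, 24 were tested and 5 were called (20.8%, against 9.59% of all), all 5 lower in MM and 0 higher (over all probe sets, 5.65% were lower and 3.95% higher). Here 11 lower and 2 higher had an unadjusted p under 0.05 (20.2% and 15.1% of all). For the B cells of transgenic against those of nontransgenic mice, 25 were tested and limma called 0 in either direction, against 3.23% of all (2.75% higher and 0.481% lower), while 5 higher and 3 lower had an unadjusted p under 0.05 (10.6% and 9.47% of all).

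The median log2 fold change of the tested member probe sets was -0.38 for MM against Eμ-xbp-1s B cells (0.00046 over all probe sets tested), -0.53 for MM against nontransgenic B cells (-0.03 over all) and 0.03 for the B cell groups against each other (-0.05 over all). These medians count each probe set, not each gene. Bcl2 has 5 and Mcl1 has 6, all with a negative value in both comparisons of MM, while the other genes held values of both signs. Each group enters 2 of the 3 comparisons, which are therefore not independent of each other. Non-overlapping groups were counted too. The MM arrays lay below every Eμ-xbp-1s B cell array at 7 of 25 member probe sets (4.15% of all probe sets tested) and above at 0 (4.04%). They lay below every nontransgenic array at 7 of 24 (9.55% of all) and above at 1 (6.59% of all). In both comparisons, all 7 probe sets with MM below were of Bcl2 or Mcl1. Eμ-xbp-1s B cell arrays lay above every nontransgenic array at 1 of 25 (5.6% of all) and below at 1 (3.37% of all). The counts of calls moved with single arrays. Against Eμ-xbp-1s B cells, the single lower call was lost without Eμ-xbp-1s array 4 (0 calls), whereas there were 5 such calls without MM array 3 and 2 without Eμ-xbp-1s array 3. Against nontransgenic B cells, the 5 lower calls became 0 without nontransgenic array 1, 2 or 5, 1 without nontransgenic array 3 or 4, 2 without MM array 2, 4 or 5, and 3 without MM array 1. Calls over all probe sets are not given for these fits, so a shift of the members cannot be told from a shift of all probe sets.

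**Figure D1:**
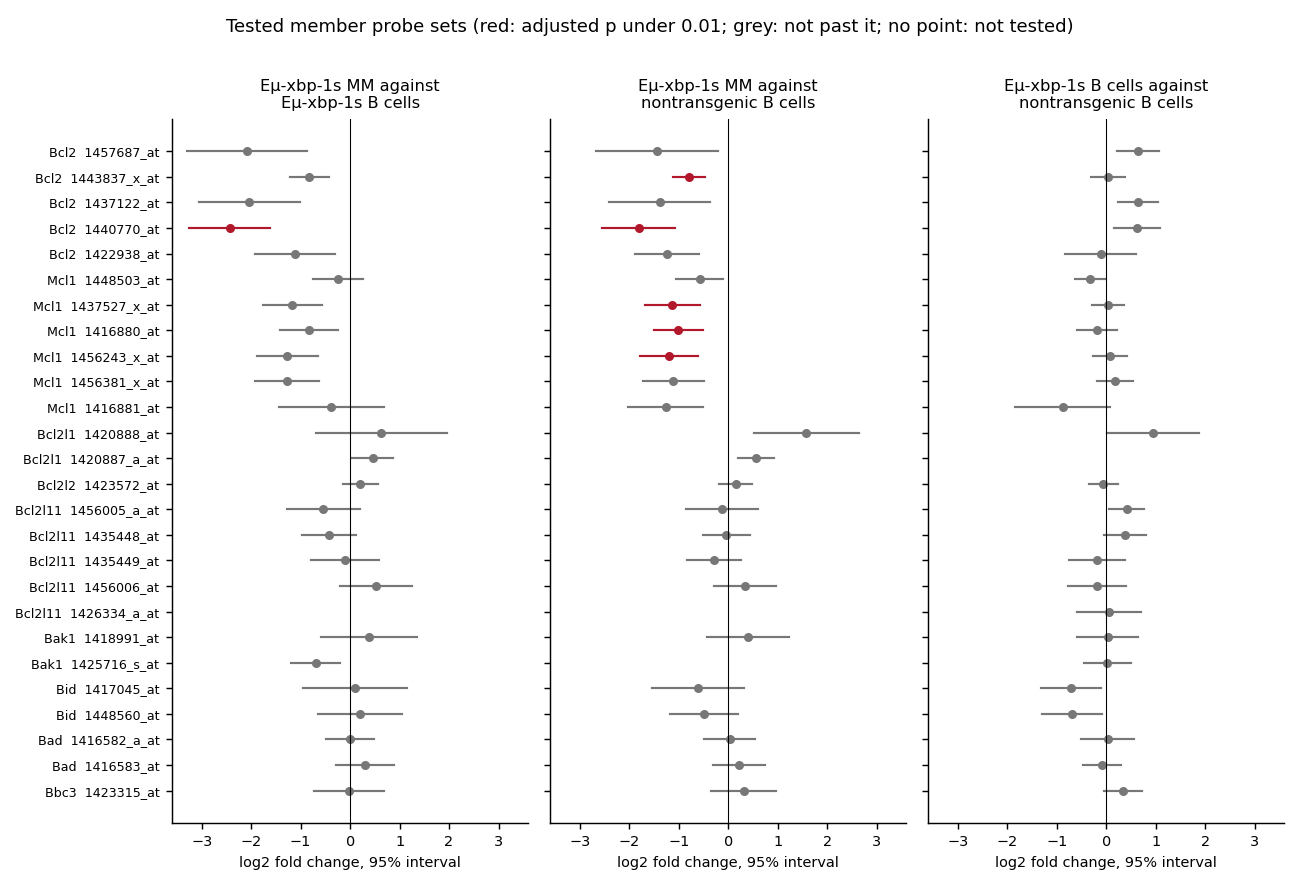
Log2 fold changes (horizontal axis) with 95% intervals from limma for the 26 member probe sets tested in at least 1 comparison, 1 per line, in the 3 comparisons. Red marks an adjusted p under 0.01, reached by 1 Bcl2 probe set in the left panel and by 2 Bcl2 and 3 Mcl1 probe sets in the middle panel, all to the left of 0.

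Bcl2 encodes the founding protector of the family and has 5 probe sets, all tested in every comparison. At its brightest, 1457687_at, the MM arrays read 53.4 at the lowest, 252 at the median and 632 at the highest, against 1171, 940.3, 748, 878 and 776 on Eμ-xbp-1s B cell arrays and 714, 785, 453, 528 and 453 on nontransgenic arrays. Every MM array lay below every Eμ-xbp-1s B cell array, and MM arrays 2 and 3 (489 and 632) lay within the nontransgenic range. The log2 fold change was -2.09 (standard error 0.56, adjusted p = 0.0342 from limma) against Eμ-xbp-1s B cells and -1.45 (standard error 0.57, adjusted p = 0.0908) against nontransgenic B cells, neither past the threshold.

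At 1440770_at the MM arrays read 19.9, 90.7 and 189 (lowest, median, highest), the Eμ-xbp-1s B cell arrays 384, 332, 746, 629.9 and 467, and the nontransgenic arrays 306, 385, 310, 291 and 302. Bcl2 fell at this probe set in both comparisons of MM, and the MM arrays did not overlap with either B cell group. The log2 fold change was -2.44 (standard error 0.38, adjusted p = 0.00266 from limma) against Eμ-xbp-1s B cells and -1.81 (standard error 0.34, adjusted p = 0.00346) against nontransgenic B cells. MM arrays 5 and 6 were under the floor of 50, so the size moves with the floor, and with a floor of 16 it was -2.79 against Eμ-xbp-1s B cells. The list of mature B cell markers was lower in MM as well, with 3 of 9 called lower against Eμ-xbp-1s B cells and 5 of 9 against nontransgenic B cells. Without MM arrays 4 and 5, the arrays lowest in B cell markers, Bcl2 stood at -2.31 (adjusted p = 0.00780 from limma) against Eμ-xbp-1s B cells and -1.69 (adjusted p = 0.00917) against nontransgenic B cells. The MM arrays kept still summed lower in these markers than every B cell array (at most 14021 against at least 15467). The part of B cell content in the level of Bcl2 was not tested. With Eμ-xbp-1s array 3 left out as well, Bcl2 stood at -2.16 against Eμ-xbp-1s B cells and no longer passed the threshold (adjusted p = 0.0173 from limma).

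The other Bcl2 probe sets had the same sign in MM with different sizes. 1443837_x_at averaged 263 ± 43.0 in MM (SD, n = 6), against 467 ± 85.8 in Eμ-xbp-1s B cells and 451 ± 43.2 in nontransgenic B cells (SD, n = 5 each). It fell against nontransgenic B cells (log2 fold change -0.79, adjusted p = 0.0035 from limma) and stood at -0.82 against Eμ-xbp-1s B cells (adjusted p = 0.0159, not past the threshold). 1437122_at stood at -2.04 (adjusted p = 0.0186) and 1422938_at at -1.12 (adjusted p = 0.0743) against Eμ-xbp-1s B cells, and at -1.39 (adjusted p = 0.053) and -1.23 (adjusted p = 0.0117) against nontransgenic B cells, with none of these past the threshold. In all, 4 of the 5 Bcl2 probe sets had no overlap between MM and Eμ-xbp-1s B cells (MM lower without overlap at 4.15% of all probe sets tested). Between MM and nontransgenic B cells 3 of 5 had none (9.55% of all). The 5 read 1 gene on the same arrays and are not independent of each other.

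Between the B cell groups the Bcl2 probe sets split. 1457687_at, 1437122_at and 1440770_at stood 0.64, 0.65 and 0.62 log2 units higher with the transgene than without (adjusted p = 0.0711, 0.0595 and 0.112 from limma, unadjusted p = 0.00601, 0.00456 and 0.0121), and none passed. 1443837_x_at and 1422938_at stood at 0.03 and -0.12, with 95% intervals of -0.31 to 0.37 and -0.83 to 0.59.

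Mcl1, the short-lived protector on which plasma cells rely, has 6 probe sets, all tested in every comparison. At its brightest, 1448503_at, the MM arrays read 1332, 2524 and 3442 (lowest, median, highest), against 3604, 3336, 2471, 2583 and 2703 in Eμ-xbp-1s B cells and 4083, 3767, 3538, 3320 and 3603 in nontransgenic B cells. MM array 6 stood lowest of all and MM array 4 lay inside the range of both B cell groups, so the groups overlapped. The log2 fold change was -0.25 (95% interval -0.76 to 0.26, adjusted p = 0.533 from limma) against Eμ-xbp-1s B cells and -0.58 (-1.05 to -0.11, adjusted p = 0.0747) against nontransgenic B cells.

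A further 3 Mcl1 probe sets passed the test against nontransgenic B cells. At 1416880_at the MM arrays read 701, 1409 and 1638, the Eμ-xbp-1s B cell arrays 3001, 2674, 1642, 2030 and 1643, and the nontransgenic arrays 2689, 2679, 2259, 2278 and 2249. Every MM array lay below every B cell array here, although MM array 3 and Eμ-xbp-1s arrays 3 and 5 were close. The log2 fold change was -1.01 (standard error 0.23, adjusted p = 0.00917 from limma) against nontransgenic B cells and -0.82 (standard error 0.27, adjusted p = 0.0713) against Eμ-xbp-1s B cells.

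1437527_x_at averaged 1196 ± 439.8 in MM (SD, n = 6), against 2556 ± 457 in Eμ-xbp-1s B cells and 2470.2 ± 248 in nontransgenic B cells (SD, n = 5 each). It fell by 1.13 on the log2 scale against nontransgenic B cells (adjusted p = 0.00867 from limma), and 1456243_x_at fell by 1.19 (adjusted p = 0.00854). Against Eμ-xbp-1s B cells the changes were -1.17 (adjusted p = 0.0186) and -1.27 (adjusted p = 0.0163), with no overlap between the arrays but not past the threshold. The ending _x_at marks probe sets whose probes also resemble other sequences, and 3 of the 6 Mcl1 probe sets carry it. Without MM arrays 4 and 5 the fall at 1437527_x_at against nontransgenic B cells was -1.05 and did not pass (adjusted p = 0.0283 from limma), and at 1416880_at it was -0.93 (adjusted p = 0.0236). The call at 1456243_x_at was lost there too (adjusted p = 0.0263).

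The fifth Mcl1 probe set, 1456381_x_at, averaged 797 ± 344 in MM (SD, n = 6), against 1809 ± 346 in Eμ-xbp-1s B cells and 1593 ± 221 in nontransgenic B cells (SD, n = 5 each). It stood at -1.28 (adjusted p = 0.0197 from limma) against Eμ-xbp-1s B cells and -1.11 (adjusted p = 0.0166) against nontransgenic B cells, neither past the threshold and both with overlapping arrays.

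At the sixth, 1416881_at, the MM arrays read 183, 584 and 766 (lowest, median, highest). The Eμ-xbp-1s arrays read 1467, 1336, 329, 391 and 348, and the nontransgenic arrays 1673, 1399.9, 856, 1061 and 885. Arrays 1 and 2 were the highest in both B cell groups, and every MM array lay below every nontransgenic array. In MM it stood at -0.38 (adjusted p = 0.657 from limma) against Eμ-xbp-1s B cells and -1.27 (adjusted p = 0.0217) against nontransgenic B cells. Over all arrays the log2 fold change between the B cell groups was -0.88 (standard error 0.44, adjusted p = 0.292 from limma). With arrays 1 and 2 of both groups left out, it was -1.39 and passed (adjusted p = 0.00151), an alternative chosen after the data were seen.

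**Figure D2:**
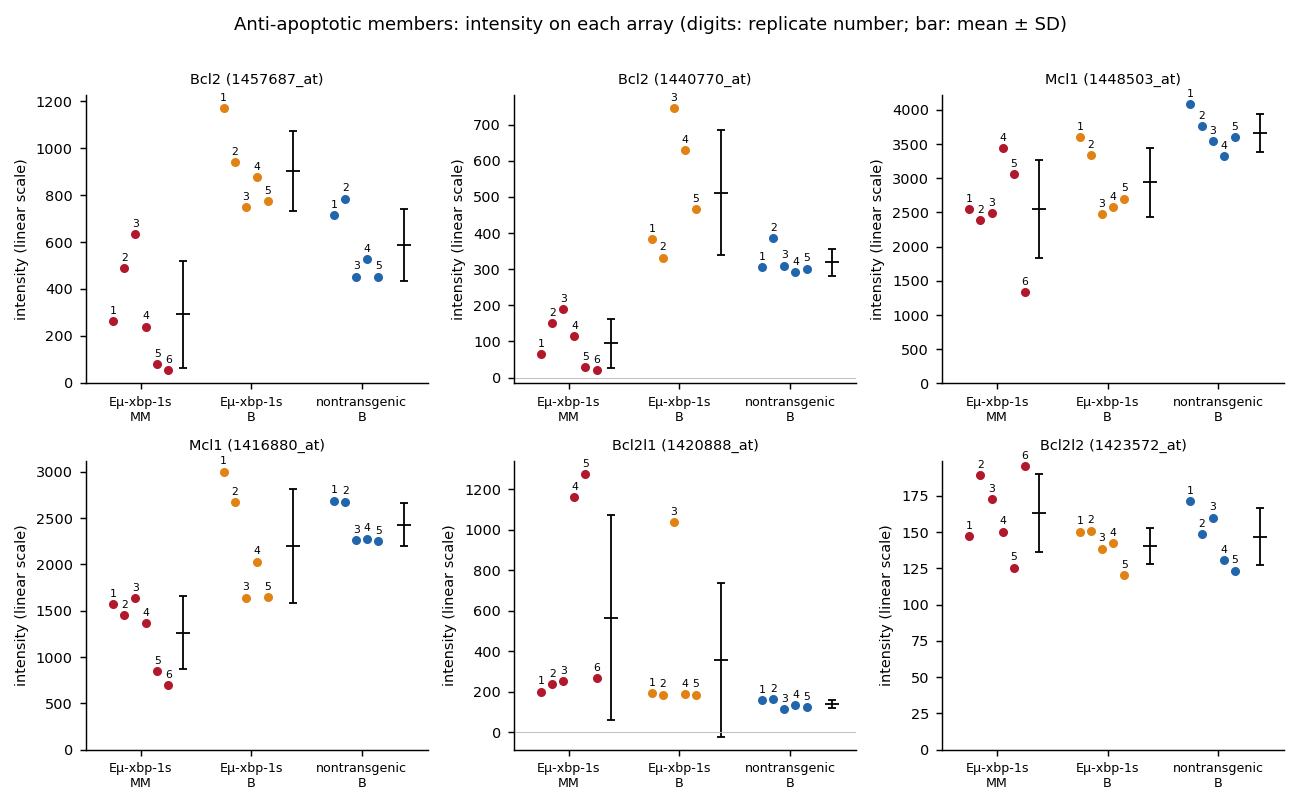
Intensity on a linear scale (vertical axis) of 6 probe sets of Bcl2, Mcl1, Bcl2l1 and Bcl2l2 on each array of the 3 groups (horizontal axis), with replicate numbers beside the points and the mean ± SD as a bar. The MM points lie below all B cell points for Bcl2 1440770_at and Mcl1 1416880_at but not for Mcl1 1448503_at, and 3 high points stand out for Bcl2l1: MM arrays 4 and 5 and Eμ-xbp-1s array 3.

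The promoters of Bcl2 and Mcl1, the 2 genes with probe sets called lower in MM, are shown as the 250 bases before the RefSeq start (build GRCm38.p6). All 9 genes matched the promoter table by symbol, with 15 start sites in all. Capitals mark the GC box GGCGGG or its reverse complement CCCGCC, overlapping matches included, which occurs on either strand in 32.5% of all 32851 promoter windows of this length and in 11 of the 15 member windows, from 7 of the 9 genes. The motifs were chosen with the expression values known. The Bcl2 window is chr1:106714291-106714540 on the minus strand and the Mcl1 window chr3:95658471-95658720 on the plus strand.
Bcl2: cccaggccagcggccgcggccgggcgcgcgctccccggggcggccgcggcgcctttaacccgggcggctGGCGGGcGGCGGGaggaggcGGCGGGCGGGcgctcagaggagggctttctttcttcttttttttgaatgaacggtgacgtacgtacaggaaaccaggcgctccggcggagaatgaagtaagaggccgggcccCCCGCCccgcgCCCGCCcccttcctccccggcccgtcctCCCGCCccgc
Mcl1: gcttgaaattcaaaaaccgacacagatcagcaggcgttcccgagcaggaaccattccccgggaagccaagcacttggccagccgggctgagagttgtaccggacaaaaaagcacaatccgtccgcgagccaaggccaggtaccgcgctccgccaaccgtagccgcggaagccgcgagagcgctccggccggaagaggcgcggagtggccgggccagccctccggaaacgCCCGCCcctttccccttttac
The Bcl2 window held 7 matches and the Mcl1 window 1. The letters TGACGTG, an element of the unfolded protein response that XBP1 binds, were searched on both strands too. They are found in 1.65% of all windows and in none of the 15 member windows. A FOXO motif, GTAAACA, was searched as well. It is found in 3.17% of all windows and in 2 of the 15 member windows, from Bbc3 and Bcl2l11.

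Bcl2l1, which encodes the protector BCL-XL, ranged widely between arrays of one group. At its brightest probe set, 1420888_at, the MM arrays read 201 at the lowest, 260.0 at the median and 1276 at the highest, the Eμ-xbp-1s B cell arrays 194, 186, 1037, 187 and 185, and the nontransgenic arrays 159, 164, 115, 133 and 123. MM arrays 4 and 5 (1163 and 1276) and Eμ-xbp-1s array 3 (1037) stood far above all others, and the remaining MM arrays still lay above every nontransgenic array. In MM it changed on the log2 scale by 0.63 (standard error 0.61, adjusted p = 0.546 from limma) against Eμ-xbp-1s B cells and 1.58 (standard error 0.49, adjusted p = 0.0381) against nontransgenic B cells, neither past the threshold.

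The same 3 arrays were the highest in the sum of red cell markers. Alas2, which starts heme synthesis in red cells, read 6037 and 6599 on MM arrays 4 and 5 and 4045 on Eμ-xbp-1s array 3, against 16.3 to 92.0 on the other MM arrays, 329 to 559 on the other Eμ-xbp-1s arrays and 16.5 to 81.3 on nontransgenic arrays. The erythroid markers that could be measured (6 of 10) summed to 156 to 20201 in MM, 949 to 8700 in Eμ-xbp-1s B cells and 172 to 373 in nontransgenic B cells. Alas2 and Slc4a1 had the highest means of the 6 in MM (2134 and 2459). Hba-a1 was under 50 on every array, at most 30.3 in MM, 43.3 in Eμ-xbp-1s B cells and 23.8 in nontransgenic B cells. The part of red cells in the level of Bcl2l1 was not tested. Without MM arrays 4 and 5, Bcl2l1 was 0.79 log2 units higher in MM than in nontransgenic B cells and passed the test (adjusted p = 0.00713 from limma), and against Eμ-xbp-1s B cells it stood at -0.15 (adjusted p = 0.879). With Eμ-xbp-1s array 3 left out too, it stood at 0.34 against Eμ-xbp-1s B cells (adjusted p = 0.222). Between the B cell groups the log2 fold change was 0.94 (standard error 0.42, adjusted p = 0.24), and 0.45 without Eμ-xbp-1s array 3 (adjusted p = 0.0672). Every Eμ-xbp-1s array lay above every nontransgenic array at this probe set.

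A second Bcl2l1 probe set, 1420887_a_at, averaged 111 ± 23.2 in MM (SD, n = 6), against 80.9 ± 16.2 in Eμ-xbp-1s B cells and 74.4 ± 9.66 in nontransgenic B cells (SD, n = 5 each). Its log2 fold change was 0.45 (adjusted p = 0.159 from limma) and 0.56 (adjusted p = 0.035) in MM against the 2 B cell groups in that order. The other 2 probe sets of the gene were under 50 on all 16 arrays. One of the 3 RefSeq start windows of Bcl2l1, chr2:152828490-152828739 on the minus strand, held the GATA motif AGATAA, shown in capitals and chosen because GATA factors act in red cells. Of the 15 member windows, 1 held this motif on either strand, against 9.99% of all windows. Its bearing on the level of Bcl2l1 was not tested.
Bcl2l1: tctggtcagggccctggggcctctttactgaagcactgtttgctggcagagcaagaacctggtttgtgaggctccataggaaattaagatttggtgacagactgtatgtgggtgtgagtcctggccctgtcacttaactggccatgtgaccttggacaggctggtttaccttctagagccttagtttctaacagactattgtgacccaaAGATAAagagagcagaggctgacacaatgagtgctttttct

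**Figure D3:**
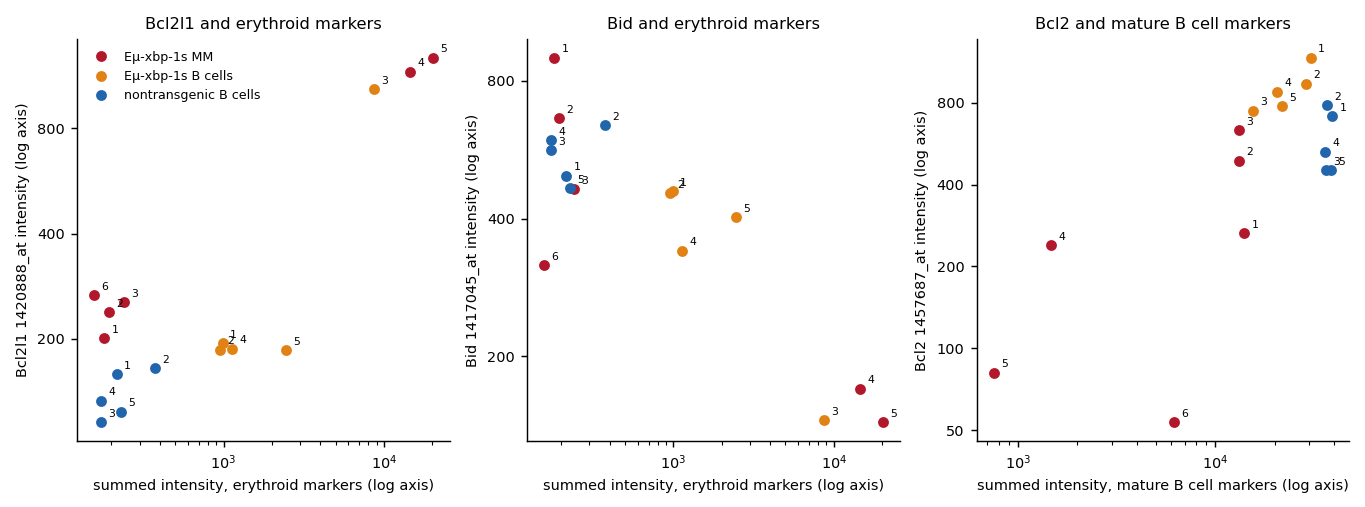
Each point is 1 array, with its replicate number: the intensity of Bcl2l1, Bid or Bcl2 at the brightest probe set (vertical axis, log scale) against the summed intensity of erythroid markers (Bcl2l1 and Bid panels) or of mature B cell markers (Bcl2 panel) (horizontal axis, log scale). MM arrays 4 and 5 and Eμ-xbp-1s array 3 stand apart with Bcl2l1 at 1037 to 1276, and are the 3 lowest in Bid.

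Bcl2l2, which encodes the protector BCL-W, was not found to differ. Its 1 tested probe set, 1423572_at, averaged 163 ± 26.9 in MM (SD, n = 6), against 141 ± 12.3 in Eμ-xbp-1s B cells and 147 ± 19.8 in nontransgenic B cells (SD, n = 5 each). The 95% interval of the log2 fold change was -0.15 to 0.56 when MM was set against Eμ-xbp-1s B cells, -0.20 to 0.49 against nontransgenic B cells and -0.34 to 0.23 between the B cell groups. Its other 3 probe sets were too dim to test, and 1 of them was under 50 on every array.

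Of the pore formers, Bak1 was measured with 2 probe sets. At the brighter, 1418991_at, the MM arrays read 78.9, 314 and 435 (lowest, median, highest), the Eμ-xbp-1s B cell arrays 311, 291, 95.4, 194 and 159, and the nontransgenic arrays 199, 223, 160.4, 195 and 174. MM arrays 1 to 3 (387 to 435) were above every B cell array, and MM array 6 was the lowest of all 16. Bak1 stood at 0.37 on the log2 scale (95% interval -0.60 to 1.34) in MM against Eμ-xbp-1s B cells, 0.40 (-0.43 to 1.23) in MM against nontransgenic B cells and 0.03 (-0.59 to 0.64) between the B cell groups, with adjusted p = 0.632, 0.486 and 0.971 from limma. The dimmer probe set, 1425716_s_at, had the opposite sign in MM against Eμ-xbp-1s B cells, at -0.70 (adjusted p = 0.0725 from limma).

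Among the BH3-only members, Bcl2l11, which encodes BIM and is a main killer of B cells, ranged widely in MM at its brightest probe set. 1456005_a_at read 351, 747 and 1598 in MM (lowest, median, highest), 1342, 1054, 1032, 1147 and 846 in Eμ-xbp-1s B cells and 816, 1050 (array 2), 814, 778 and 628 in nontransgenic B cells. MM array 3 was the highest and MM array 6 the lowest of all 16 arrays. On the log2 scale the difference was -0.54 (95% interval -1.27 to 0.19, adjusted p = 0.335 from limma) in MM against Eμ-xbp-1s B cells, -0.13 (-0.86 to 0.60, adjusted p = 0.819) in MM against nontransgenic B cells and 0.41 (0.05 to 0.77, adjusted p = 0.18) between the B cell groups. The other Bcl2l11 probe sets did not share a sign, with values of -0.42 at 1435448_at, -0.11 at 1435449_at and 0.53 at 1456006_at when MM was set against Eμ-xbp-1s B cells. Against nontransgenic B cells MM stood at -0.04, -0.30 and 0.34 at the same probe sets. 1426334_a_at was bright enough to test between the B cell groups alone (0.05, adjusted p = 0.947 from limma).

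Bid, the link from death receptors to mitochondria, was low on the arrays where Bcl2l1 was high. 1417045_at read 144, 390.3 and 898 in MM (lowest, median, highest), 459, 454, 145, 340.5 and 403 in Eμ-xbp-1s B cells and 496, 640 (array 2), 564, 593 and 466 in nontransgenic B cells. MM arrays 4 and 5 and Eμ-xbp-1s array 3, the 3 arrays highest in erythroid markers, were the 3 lowest of all, and every Eμ-xbp-1s array lay below every nontransgenic array. On the log2 scale Bid stood at 0.10 (95% interval -0.95 to 1.16) in MM against Eμ-xbp-1s B cells, -0.61 (-1.54 to 0.32) in MM against nontransgenic B cells and -0.72 (-1.33 to -0.10, adjusted p = 0.176 from limma) between the B cell groups. Without Eμ-xbp-1s array 3 the last of these was -0.41 (adjusted p = 0.112), and without MM arrays 4 and 5 the value against nontransgenic B cells was -0.01 (adjusted p = 0.985). The second tested Bid probe set, 1448560_at, stood at -0.69 between the B cell groups (adjusted p = 0.181 from limma), and at 0.20 and -0.49 in MM against the Eμ-xbp-1s and the nontransgenic B cells.

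Bad, which is held inactive by survival kinases, had log2 fold changes near 0 at its brightest probe set. 1416582_a_at averaged 368 ± 87.3 in MM (SD, n = 6), against 370.5 ± 92.8 in Eμ-xbp-1s B cells and 369 ± 123 in nontransgenic B cells (SD, n = 5 each), with 95% intervals of the log2 fold change of -0.49 to 0.48, -0.49 to 0.55 and -0.50 to 0.57 for MM against the transgenic B cells, MM against the nontransgenic B cells and the B cell groups against each other. Its second probe set, 1416583_at, stood at 0.30, 0.21 and -0.09 in the same order (adjusted p = 0.506, 0.566 and 0.831 from limma). Bbc3 encodes PUMA, a target of p53, and has 1 probe set. 1423315_at read 110, 245 and 363 in MM (lowest, median, highest), 294, 277, 213, 174 and 175 in Eμ-xbp-1s B cells and 196, 151, 166, 174 and 192 in nontransgenic B cells. MM arrays 4 to 6 (312 to 363) were above every B cell array, and MM array 1 was the lowest of all 16. Bbc3 stood at -0.02 on the log2 scale (95% interval -0.73 to 0.68) in MM against Eμ-xbp-1s B cells, 0.31 (-0.34 to 0.97) in MM against nontransgenic B cells and 0.34 (-0.04 to 0.71, adjusted p = 0.307 from limma) between the B cell groups.

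**Figure D4:**
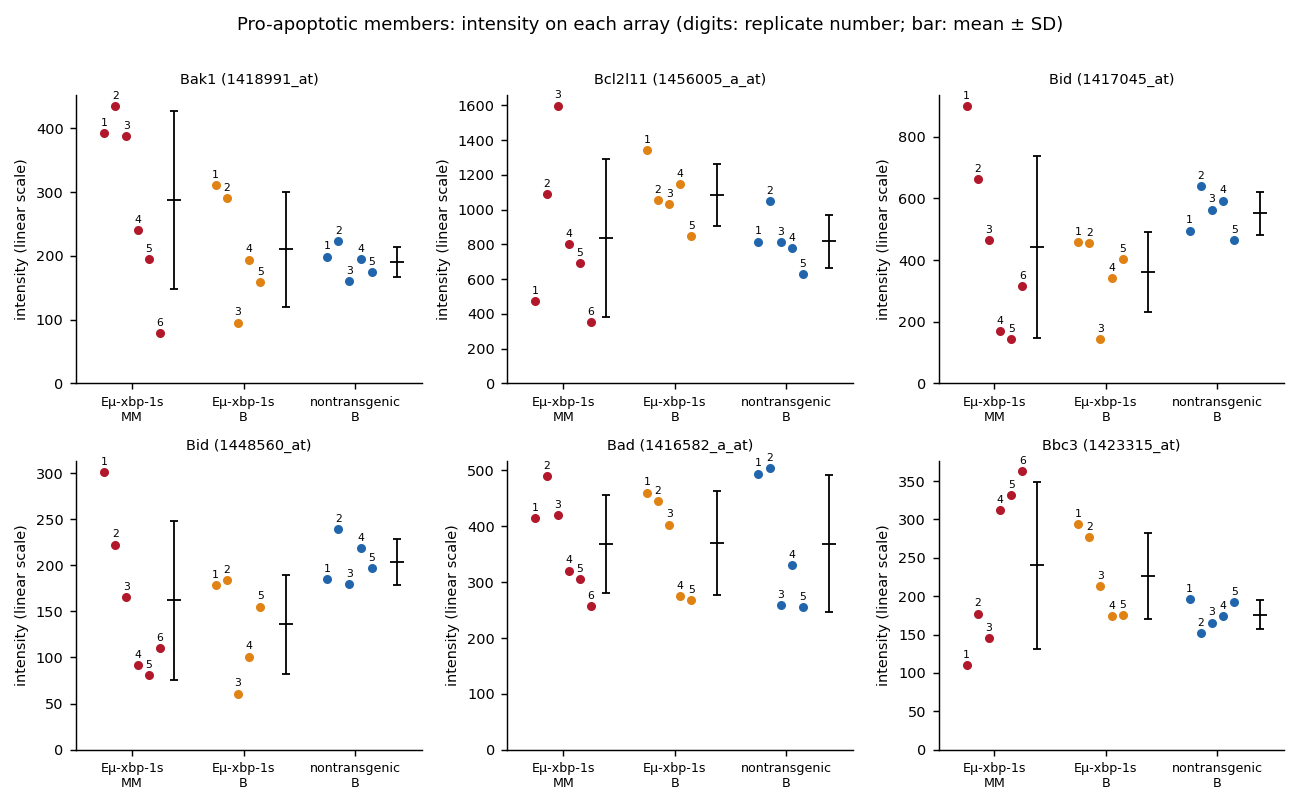
Intensity on a linear scale (vertical axis) of 6 probe sets of Bak1, Bcl2l11, Bid, Bad and Bbc3 on each array of the 3 groups (horizontal axis), with replicate numbers beside the points and the mean ± SD as a bar. No panel passed the test in any comparison, and the MM arrays spread more widely than the nontransgenic arrays in every panel but that of Bad.

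Arrays 1 and 2 of the B cell groups stood above the others at some probe sets of 5 of the 9 genes. At 12 of the 25 member probe sets tested between the B cell groups (48.0%), arrays 1 and 2 were both above arrays 3 to 5 in Eμ-xbp-1s and in nontransgenic B cells alike, against 19.5% of all probe sets tested, and they were below at 0 (8.4% of all). These 12 were 3 probe sets each of Bcl2, Mcl1 and Bcl2l11, both of Bad and 1 of Bak1, and none of Bcl2l1, Bcl2l2, Bid or Bbc3. The labels give these arrays no batch, and what they share was not tested.

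Genes around the family were read by their brightest probe set. Of 4 further anti-apoptotic relatives 1 had a probe set, Bcl2l10, and it was too dim to test. Of the pro-apoptotic relatives outside the 10 members, 9 of 10 had a probe set and 8 were tested, and 1 was called higher in each comparison of MM. It was Bnip3, a mitochondrial BH3-like protein induced by low oxygen, which averaged 311 ± 64.3 in MM (SD, n = 6), against 117 ± 11.7 in Eμ-xbp-1s B cells and 93.7 ± 14.5 in nontransgenic B cells (SD, n = 5 each). No MM array overlapped with a B cell array. The log2 fold change was 1.40 (adjusted p = 0.000986 from limma) against Eμ-xbp-1s B cells and 1.72 (adjusted p = 6.94e-05) against nontransgenic B cells. The list's median log2 fold change was 0.17 and 0.10 in these comparisons and -0.06 between the B cell groups. Pmaip1, which encodes NOXA, the BH3-only partner of MCL1, averaged 286 ± 177 in MM (SD, n = 6), against 227 ± 42.6 in Eμ-xbp-1s B cells and 166 ± 26.9 in nontransgenic B cells (SD, n = 5 each), and did not pass.

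Downstream of the family, 12 of 14 genes of the apoptosome, the caspases and the mitochondrial factors were tested, with 0 called against Eμ-xbp-1s B cells (median log2 fold change 0.16), 1 higher in MM against nontransgenic B cells (median -0.07) and 0 between the B cell groups (median -0.17). The 1 was Cycs, which encodes cytochrome c, at 2209.8 ± 507 in MM (SD, n = 6) and 1198 ± 208 in nontransgenic B cells (SD, n = 5), a log2 fold change of 0.87 (adjusted p = 0.00754 from limma). All 5 caspase inhibitors of the list were tested and 0 were called by the brightest probe set in any comparison, with medians of -0.15, -0.25 and -0.12 for MM against the transgenic B cells, MM against the nontransgenic B cells and the B cell groups against each other. Birc5 was counted with the genes of G2 and mitosis, all 9 of which were called higher in MM against nontransgenic B cells. It averaged 1256 in MM, 283 in Eμ-xbp-1s B cells and 203 in nontransgenic B cells. Birc3, the inhibitor furthest from 0, stood at -0.98 (adjusted p = 0.112) and -1.29 (adjusted p = 0.0175) in the comparisons of MM.

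Of 7 death receptors and adaptors, 5 were tested and 1 was called. Tnfrsf1b, a receptor of tumor necrosis factor, rose, with 495 ± 135 in Eμ-xbp-1s B cells, against 215 ± 32.2 in nontransgenic B cells (SD, n = 5 each), a log2 fold change of 1.17 (adjusted p = 0.00324 from limma). The markers of T cells, neutrophils and macrophages, cells that also carry this receptor, summed higher on the Eμ-xbp-1s arrays, as given above, and their part was not tested. Of 13 genes that regulate the members, 12 were tested and 1 was called, lower in MM against nontransgenic B cells. It was Foxo1, of a factor family that activates Bcl2l11 and Bbc3, with 552 ± 273 in MM (SD, n = 6), against 1337 ± 355 in Eμ-xbp-1s B cells and 1479 ± 58.9 in nontransgenic B cells (SD, n = 5 each). Its log2 fold change was -1.63 (adjusted p = 0.00907 from limma) against nontransgenic B cells and -1.44 (adjusted p = 0.0375) against Eμ-xbp-1s B cells. The list's median was 0.08, -0.00464 and -0.10 in the 3 comparisons, in the order used for the caspase inhibitors.

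The genes whose pattern over the 16 arrays lay closest to each member were ranked by Pearson's r of log2 intensity among 11064 genes, as a description of arrays that share groups and sample make-up. Closest to Bcl2 were Rassf5 (r = 0.988), Kbtbd11 (0.98), Lrch3 (0.967), Naa60 (0.964) and Irf2bpl (0.959). Closest to Bcl2l1 were Marchf2 (r = 0.979), Cmas (0.968), Slc25a39 (0.965), Tfdp2 (0.957) and Fech (0.956), and FECH completes heme synthesis. Closest to Mcl1 were D17H6S56E-5 (r = 0.91), Elf2 (0.905), Plaur (0.887), Ddx5 (0.886) and Nsf (0.883). Closest to Bak1 were Eif3b (r = 0.96), Atp6v1b2 (0.953) and 3 proteasome genes, Psmd2 (0.947), Psma1 (0.945) and Psmc4 (0.941). For Bid they were Nt5c3b, Eps8l3, Foxp4, Grpel2 and Hmgn1 (r = 0.922 to 0.934), for Bad Ogfod2, Cdk10, Zfp934, Renbp and Vgll4 (0.911 to 0.954), for Bcl2l11 Cops8, Ubxn4, Stk38, Gosr2 and Prkaca (0.882 to 0.903), for Bbc3 Tollip, AU021092, Tatdn2, Mpp2 and Cyb5a (0.766 to 0.862) and for Bcl2l2 Cbln1, Htr5a, Twist2, Spata21 and Gem (0.786 to 0.838). Between members, the pair furthest from 0 was Bcl2l1 with Bid (r = -0.871), and the highest was Bcl2 with Bcl2l11 (r = 0.769).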

How the data were processed

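Each array was assigned to its group and number by its label. The deposited table holds an intensity for every probe set on each array, linear and not logged: per the study's methods, the authors scaled the arrays with dChip to 1 array of median brightness and took model-based expression (perfect match minus mismatch). The lowest value is 1, at which 0.764% of the values stand. Of 45101 probe sets, the platform annotation gives 1 gene for 34958 and several for 932, 9211 are not listed in it, and 64 controls were left out. A floor of 50 was set, and a probe set was tested on the log2 scale if over 20% of the arrays in a comparison exceeded 100, using limma 3.58.1 (lmFit, eBayes) under R 4.3.3 with a separate fit for every pair of groups, Benjamini-Hochberg adjustment and a threshold of 0.01. This replaced the SAM test of the study's methods. A fold change is on this floored log2 scale. For each gene the probe set brightest on average over 16 arrays comes first, its other tested probe sets follow, and up to 4 called genes are named per list and comparison. The members and gene lists were chosen with earlier results of these data known. The fit was tested on simulated data with 200 probe sets changed. It recovered 15% and 69% of changes of 1 and 2 on the log2 scale with MM set against Eμ-xbp-1s B cells. The rates were 20% and 73% with MM set against nontransgenic B cells and 60% and 92% between the B cell groups, with 0 false calls. The simulated noise was drawn separately for each probe set. Real arrays share differences in sample make-up, so the 0 does not measure false calls in the real data. Deviations of same-numbered arrays of the B cell groups from their group means correlated at 0.512, 0.527, 0.218, 0.176 and 0.512. Eμ-xbp-1s arrays 2 and 3 correlated best with the nontransgenic array of their own number, and arrays 1, 4 and 5 with another. No label gives pairs, so the main tests were unpaired, and a replicate block was fitted as an alternative alone. Promoter sequences are from RefSeq. Python 3.11.15 with numpy 2.4.6, pandas 2.3.3 and matplotlib 3.10.9 served for tables and plots. Alternatives were other floors, a pseudocount, no filter, quantile normalization, median scaling, a single fit of all groups, trend and robust variance, array weights, a threshold of 0.05, a replicate block, averaging the probe sets of a gene, and arrays left out. Precision is limited by how many arrays each group has, and no sequencing depth applies.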

Additional observations from a re-analysis of the deposited data

Results flagged for a closer look

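Among 78 groups of arrays (26 tested member probe sets in 3 groups), 2 held an array whose distance from the rest exceeded Dixon's 95% limit, which chance gives in about 1 group in 20. Bcl2l1 1420888_at read 1037 on Eμ-xbp-1s B cell array 3, against 185 to 194 on the other Eμ-xbp-1s arrays. Bcl2 1440770_at read 385 on nontransgenic array 2, against 291 to 310 on the other nontransgenic arrays.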

How the results depend on the processing

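No called value changed sign under any alternative. In MM against Eμ-xbp-1s B cells, the count of member probe sets called lower (1) became 2 with a floor of 100, 0 with no filter on low values, 4 with quantile normalization, 5 with median scaling, 7 with all groups in a single fit, 10 with array weights, 7 at an adjusted p under 0.05, 0 to 5 with single arrays left out and 0 without MM arrays 4 and 5 and Eμ-xbp-1s array 3. In MM against nontransgenic B cells, the count called lower (5) became 1 with no filter, 9 with quantile normalization, 8 with median scaling, 8 at an adjusted p under 0.05, 2 with the replicate block, 2 without MM arrays 4 and 5 and 0 to 7 with single arrays left out. The count called higher (0) became 4 with array weights, 2 at an adjusted p under 0.05 and 1 without MM arrays 4 and 5. Between the B cell groups, the count called higher (0) became 4 with array weights and the count called lower (0) became 1 without arrays 1 and 2 of both groups. The sets of arrays 4, 5 and 3 and of arrays 1 and 2 were chosen after the data were seen, and the causes of these shifts were not tested. Median scaling moved the median of all probe sets tested in MM against nontransgenic B cells to -0.14 from -0.03, and split all calls in MM against Eμ-xbp-1s B cells into 247 higher and 762 lower, against 285 and 423 without it. Quantile normalization gave 515 lower calls over all probe sets there. Against nontransgenic B cells, lower calls over all probe sets were 1500 with quantile normalization and 2078 with median scaling, against 1236 with neither. For the other alternatives, calls over all probe sets are not given, so their member counts have no share beside them.

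The replicate block changed no member call between the B cell groups (0 in either direction). In the comparisons of MM the same-numbered arrays correlated between -0.284 and 0.442, and no label makes them pairs either. There the block gave 1 lower call against Eμ-xbp-1s B cells and 2 against nontransgenic B cells, and MM array 6 has no partner. Of the log2 fold changes of single member probe sets under all alternatives, 569 of 606 kept their side of the threshold in MM against Eμ-xbp-1s B cells, 492 of 561 in MM against nontransgenic B cells and 552 of 557 between the B cell groups. Most of these values belong to probe sets not called in the main test. In MM against nontransgenic B cells, 46 values lost a call and 23 gained one. Bcl2 1440770_at stayed between -2.79 and -1.74 against Eμ-xbp-1s B cells, past the threshold in 21 of 24 alternatives. Against nontransgenic B cells, it passed in 17 of 23 alternatives and Bcl2 1443837_x_at in 18 of 23. The called Mcl1 probe sets were less stable there. 1416880_at passed in 12 of 23 alternatives, 1437527_x_at in 11 of 23 and 1456243_x_at in 11 of 23. The dChip values are not recomputed here, and probe sets near 50 have no usable order. The recovery rates above come from simulated data in which fewer probe sets changed than were called here in MM. The adjusted p depends on how many probe sets change, so these rates do not measure how often a change of 1 was missed. Changes of about this size went both ways in MM. Mcl1 1437527_x_at was called at -1.13 against nontransgenic B cells and not called at -1.17 against Eμ-xbp-1s B cells.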
